A study of Mus musculus with 3 samples.

Results

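The genes described are 9 secreted growth factors of vessel growth and wound repair, Vegfa, Pgf, Osm, Areg, Ereg, Hbegf, Pdgfa, Pdgfb and Igf1, followed through the cells of mouse ear epidermis. They were taken by symbol from the 34289 features of the deposited lists, and all 9 were found. Langerhans cells (LCs) are antigen-presenting cells that live among the keratinocytes of the epidermis. The LCs were magnetically enriched from ear epidermis of male Cd1 mice, an outbred stock, and profiled by droplet single-cell RNA sequencing of transcript 3′ ends. The untreated library came from mice given only a depilatory cream (Nair). The croton oil library came from mice treated with this irritant plant oil together with acetone and olive oil, and the microneedle library from mice given multiple microneedle punches. Cells were collected 48 hours after the first treatment. Each group is 1 library, and the labels do not state how many animals went into it. No difference between groups can therefore be tested. Treatment and library cannot be told apart, and every interval below (95%, exact) covers counting error within a library only.

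Vegfa and Pgf, both of the vascular endothelial growth factor family, act on receptors of blood vessel cells: Vegfa on Kdr and Flt1, Pgf on Flt1. Osm, an interleukin-6 family cytokine, acts on keratinocytes through Osmr paired with Il6st. Areg, Ereg and Hbegf are ligands of the epidermal growth factor receptor Egfr, made as membrane proteins and released by proteases, and drive keratinocyte growth and migration. Pdgfa and Pdgfb form the platelet-derived growth factors, which act on fibroblasts and the cells that wrap vessels. Igf1, insulin-like growth factor 1, acts through Igf1r and is made by macrophages of healing wounds.

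An LC was a cell with at least 2% of its unique molecular identifiers (UMIs, each standing for 1 captured transcript) in Cd74, H2-Aa, H2-Ab1 and H2-Eb1 together, and with at least 2 Epcam UMIs. This gate held 8652 of 9054 retained cells of the untreated library, 5920 of 7626 of the croton oil library and 5290 of 6479 of the microneedle library. Of the 8 LC markers listed, 6 stood at 20 CPM or more (CPM, a gene's UMIs scaled to a class total of 1000000) in the gate of every library, and Cd207, which encodes langerin, stood at 568, 326 and 465 CPM. Cells outside the gate were named by cluster. Keratinocyte-like cells numbered 239, 218 and 98 and had all 8 of their listed markers at that level. Neutrophil-like cells numbered 1, 213 and 395, with all 8 markers (6 of 10 macrophage markers also reached 20 CPM in them). Macrophage-like cells numbered 3, 6 and 385, with all 10 markers after microneedling, when all 8 neutrophil markers also reached 20 CPM in them (summed 4345 CPM, against 5665 CPM for their own). In keratinocyte-like cells 7 of 8 LC markers reached 20 CPM in every library. T cell-like cells numbered 1, 135 and 14. Only classes of at least 50 cells in a library are given levels. A further 158, 1127 and 295 cells lay in LC-like clusters outside the gate, which in the croton oil library were mostly cells of a cluster led by Fscn1 and Ccr7. The gate also took in some cells of other clusters: 12 cells of the macrophage-like and 51 of the keratinocyte-like cluster in the untreated library, and 79 cells of the T cell-like cluster in the croton oil library. Summed markers of other classes in the gate stood, in library order, at 40.1, 173 and 79.3 CPM for macrophages (10 genes), 4.83, 85.7 and 20.6 CPM for T cells (8 genes) and 13.1, 66.4 and 41.3 CPM for neutrophils (8 genes). Those of keratinocytes (8 genes) were highest in the untreated gate, at 217, 187 and 45.0 CPM. Results that these cells touch are given without them too, with LCs restricted to gate cells of LC-like clusters.

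On GRCm39, Vegfa spans chr17:46327919-46343309, Pgf chr12:85213409-85224564, Osm chr11:4186420-4191026, Pdgfb chr15:79880009-79899181 and Igf1 chr10:87693642-87772904. Ereg at chr5:91222157-91241505 and Areg at chr5:91287451-91296291 are neighbours on the same strand, and Pdgfa lies on the same chromosome. All 9 members are annotated as protein coding. The annotation places an antisense gene over part of Vegfa, Ereg, Hbegf, Pdgfa, Pdgfb and Igf1, and a microRNA gene, Mir7213, on the same strand within Pdgfb. Whether the counting used strand is not given in the sources used here.

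The promoters of Vegfa and Pgf are shown because these genes had higher levels in LCs of both treatments, and that of Areg because its level in gate LCs was higher after croton oil and its window holds a cyclic AMP response element. Each line is the 250 bases before the most upstream annotated start in the gene's strand, from RefSeq on GRCm38.p6 (an older build than that of the counts), at chr17:46032378-46032627 and chr12:85177314-85177563 on the minus strand and chr5:91139349-91139598 on the plus strand. Capitals mark GCGTG read on the opposite strand in Pgf and TGACGTCA in Areg.
Vegfa: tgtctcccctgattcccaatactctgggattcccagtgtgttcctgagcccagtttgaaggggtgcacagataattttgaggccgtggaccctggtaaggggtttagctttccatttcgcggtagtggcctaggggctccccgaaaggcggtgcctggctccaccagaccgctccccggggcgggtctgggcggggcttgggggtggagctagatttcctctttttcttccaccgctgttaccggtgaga
Pgf: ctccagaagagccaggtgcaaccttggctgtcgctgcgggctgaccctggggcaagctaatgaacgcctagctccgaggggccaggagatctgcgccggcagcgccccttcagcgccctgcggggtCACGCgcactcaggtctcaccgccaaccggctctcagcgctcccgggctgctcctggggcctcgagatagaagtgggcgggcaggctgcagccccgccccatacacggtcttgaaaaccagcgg
Areg: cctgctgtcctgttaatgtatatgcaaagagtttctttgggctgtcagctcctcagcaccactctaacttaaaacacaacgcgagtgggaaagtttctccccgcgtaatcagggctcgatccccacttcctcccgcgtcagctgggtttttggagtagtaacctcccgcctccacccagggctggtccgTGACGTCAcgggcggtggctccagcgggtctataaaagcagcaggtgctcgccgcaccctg

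The windows, each with the first 50 bases after the start added, were searched on both strands for the hypoxia response core (ACGTG or its variant GCGTG), AP-1 (TGANTCA), the cyclic AMP response element (TGACGTCA) and the decamer of NF-kB. Overlapping matches were kept. A RefSeq window was at hand for 5 of the 9 genes. GCGTG occurred in the Pgf window 124 bases before the start, and 32.4% of all 32851 windows hold it. The Vegfa window held none of the 5 motifs. A downstream Vegfa start carries both hypoxia cores, GCGTG at 218 and ACGTG at 211 bases before it, and ACGTG occurs in 19.6% of windows. TGACGTCA in Areg lay 61 bases before the start and occurs in 1.79% of windows. Igf1 had GCGTG and TGANTCA (7.81% of windows), and the Pdgfa window had GCGTG. No window of the 5 genes held the NF-kB decamer, which 0.41% of windows hold.

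In LCs, 6 of the 7 members with at least 10 CPM in either library were at least 2-fold higher after croton oil, and none was 2-fold lower. Among all 8857 genes compared in the same way, 7.01% were at least 2-fold higher and 8.16% lower. Of the 6 higher members, only Vegfa reached 10 CPM in both libraries. Osm, Areg, Hbegf and Pdgfb stood at 0.967, 2.93, 1.74 and 2.15 CPM untreated. A gene that low can pass the minimum only at 2-fold or more, so these 4 calls were fixed by it. Gate cells in LC-like clusters were also compared alone, a division made after seeing the data. There 4 of 5 members were higher (Vegfa, Pgf, Osm and Pdgfb) and 1, Pdgfa, lower, while Areg and Hbegf fell under 10 CPM. Pgf, Osm and Pdgfb again passed only through croton oil, and the share over all genes was not computed for this restriction. After microneedling only 3 members reached 10 CPM in either library: Vegfa and Pgf were higher and Pdgfa lower, against 4.65% higher and 3.24% lower among 8755 genes. Between the treatments, 4 of 6 members compared, Pgf, Osm, Hbegf and Pdgfb, were at least 2-fold higher after croton oil and none lower. Among 8602 genes 2.23% were higher and 2.15% lower (4.38% in either direction). Without gate cells of other clusters 3 members were higher, as Hbegf was under the minimum. Osm, Hbegf and Pdgfb stood at 0.983, 1.09 and 3.05 CPM after microneedling, so their calls were fixed in the same way.

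**Figure D1:**
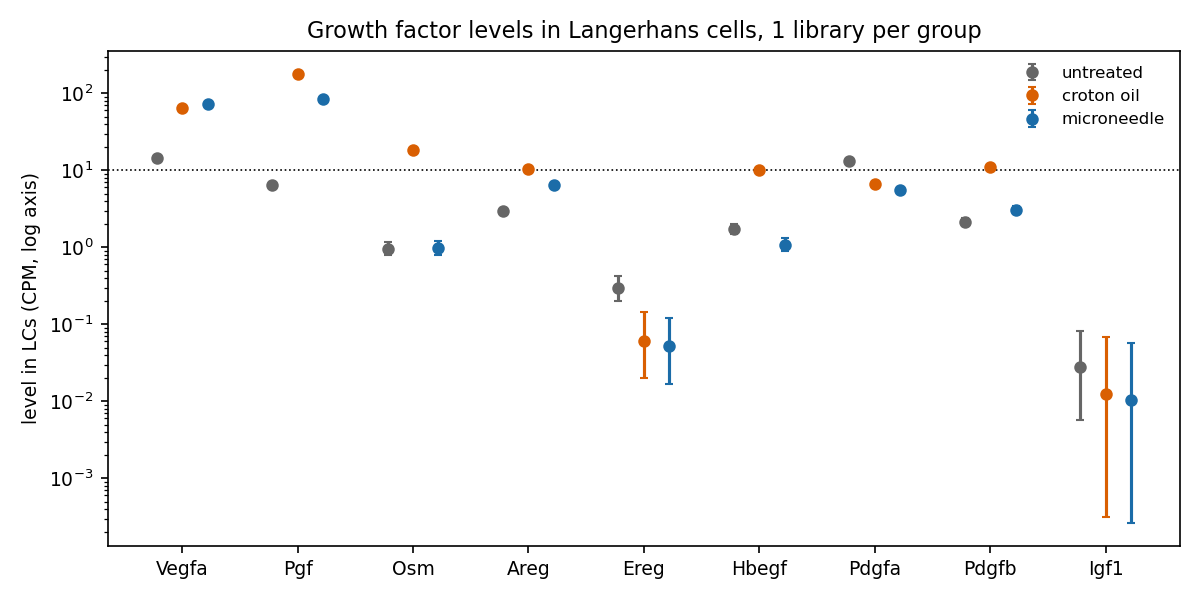
Level of each growth factor in Langerhans cells in CPM on a log axis, with 1 point per library and bars giving exact Poisson intervals; the dotted line marks the 10 CPM needed for a comparison. Vegfa and Pgf stand above the untreated library in both treatments, whereas Osm, Hbegf and Pdgfb stand apart from both other libraries after croton oil.

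Vegfa stood at 14.5 CPM in untreated LCs, 64.9 CPM after croton oil and 72.5 CPM after microneedling. Both treated libraries were high, at 4.46-fold (4.22 to 4.72) and 4.98-fold (4.72 to 5.27) the untreated level, and croton oil stood at 0.895 of microneedle (0.864 to 0.928). With every cell thinned to 2000 UMIs, 2.37%, 10.9% and 11.5% of LCs had a Vegfa UMI, in the order untreated, croton oil, microneedle. Unthinned, the shares were 10.1%, 35.8% and 42.0%. Thinning left out 43, 14 and 34 LCs with fewer UMIs.

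Pgf differed more between libraries. LCs held 6.49 CPM without treatment, 180 CPM with the oil and 84.8 CPM with the punches, ratios to untreated of 27.7 (25.7 to 29.9) and 13.1 (12.1 to 14.1). The croton oil level was 2.12-fold (2.06 to 2.18) that of microneedling. Thinned shares of LCs with a Pgf UMI were 1.14%, 21.6% and 11.7%, and unthinned shares 5.29%, 50.8% and 38.8%. Keratinocyte-like cells, in which carried-over RNA could account for all or most of the Pgf (given with their levels further on), had thinned shares of 0%, 1.94% and 1.14%; their median depths were 24704, 50698 and 26738 UMIs, against 11515, 12581 and 17346 in LCs.

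Osm showed a croton oil level that the microneedle library did not share. Gate LCs held 0.967, 18.2 and 0.983 CPM, so that croton oil was 18.8-fold (15.4 to 23.2) above untreated and 18.5-fold (15.1 to 23.0) above microneedle. The untreated value came almost wholly from few cells: 97 of its 104 UMIs (93.3%) lay in the 12 gate cells of the macrophage-like cluster, and 58 of them in 1 cell. Those 12 cells had 14.1 CPM of Cd207 and 9742 CPM of Ccl17, a chemokine gene at 1.09 CPM in the other untreated gate LCs. Restricted to LC-like clusters, Osm stood at 0.0659, 18.5 and 0.988 CPM, and the ratios to untreated became 281 (136 to 700) for croton oil and 15.0 (7.0 to 38.3) for microneedle, the untreated sum then resting on 7 UMIs. In croton oil 92.8% of Osm UMIs lay in the 5% of LCs with most, and 107 LCs held 5 or more. Of those 107 cells, 99 lay in the main croton oil cluster, led by H2-Ea and Mgl2. The thinned share of LCs with an Osm UMI was 0.0232%, 2.46% and 0.171%.

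Hbegf and Pdgfb followed the same order of libraries for croton oil. Hbegf stood at 1.74, 10.1 and 1.09 CPM, 5.82-fold (4.96 to 6.86) above untreated after croton oil and 9.32-fold (7.60 to 11.5) above microneedle. Without gate cells of other clusters Hbegf stood at 1.03, 9.82 and 1.01 CPM, under the 10 CPM minimum in each library, with a first ratio of 9.56 (7.82 to 11.8). Of untreated gate Hbegf UMIs 27.3% came from 51 cells of the keratinocyte-like cluster and 14.4% from the 12 macrophage-cluster cells. Pdgfb stood at 2.15, 11.2 and 3.05 CPM, 5.20-fold (4.5 to 6.04) above untreated after croton oil and 3.66-fold (3.21 to 4.19) above microneedle. Its microneedle level was under the 10 CPM needed for a comparison.

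Areg, a keratinocyte mitogen, stood at 2.93, 10.3 and 6.53 CPM in gate LCs, a croton oil ratio of 3.52 (3.09 to 4.02). It was carried by few cells: unthinned shares of LCs with an Areg UMI were 1.06%, 2.75% and 2.55%, while single LCs held up to 34, 64 and 38 UMIs. In croton oil 19.1% of the gate's Areg UMIs came from the 79 cells of the T cell-like cluster. Without gate cells of other clusters the level was 7.93 CPM, 2.78-fold (2.42 to 3.20) untreated and under the 10 CPM minimum. Of the 48 croton oil gate cells with 5 or more Areg UMIs, 33 lay in the main LC-like cluster and 9 in the T cell-like cluster; of the 36 such microneedle cells, 32 lay in the main LC-like cluster of that library, led by Scube1 and Neb.

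Pdgfa was the member with lower levels. LCs held 13.3, 6.69 and 5.59 CPM, which is 1.99-fold lower after croton oil (ratio 0.502, 0.454 to 0.555) and 2.38-fold lower after microneedling (ratio 0.419, 0.379 to 0.463). The croton oil value lay just inside the 2-fold limit, and Pdgfa passed it, at a ratio of 0.498, once gate cells of other clusters were left out. Ereg and Igf1 were near 0 in LCs. Ereg had 32, 5 and 5 UMIs, and of its untreated UMIs 22 came from the 51 keratinocyte-cluster cells in the gate. Igf1 had 3, 1 and 1 UMIs.

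**Figure D2:**
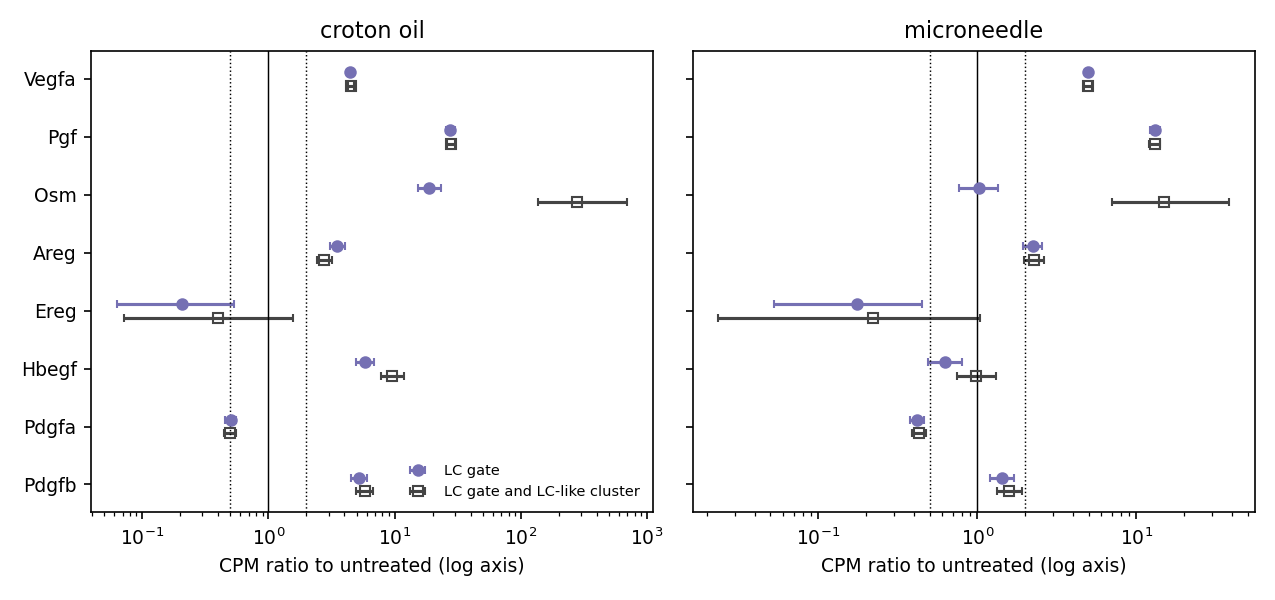
Ratio of the level in treated to untreated Langerhans cells on a log axis, with exact conditional intervals, for all cells of the gate (filled) and for gate cells in LC-like clusters (open); dotted lines mark 2-fold. Osm is the gene whose ratio moves most between both definitions, in croton oil from 18.8 to 281 and in microneedle from 1.02 to 15.0; Igf1 is left out because it had at most 3 UMIs per library.

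Within LCs, Vegfa and Pgf differed by cluster. The clusters were made from these cells and largely follow the library, so these are descriptions. Vegfa was low in the cluster led by the heat-shock genes Hsph1 and Hspa1a in every library: 2.45, 19.5 and 30 CPM, against 14, 71.8 and 80.6 CPM in the main cluster of each library. In that cluster Pgf stood at 1.54, 104 and 57.4 CPM, against 5.57, 197 and 92.6 CPM in the main clusters. Some LCs fell into the main clusters of another library. Microneedle cells were found in the clusters that held most untreated LCs. In the 190 microneedle cells of the cluster led by Adgre4 and Hpgd, Vegfa was 55.3 CPM (46.7 to 64.9) against 14 CPM in the untreated cells of that cluster, and Pgf was 15.6 CPM (11.2 to 21.1) against 5.57 CPM. In the 234 microneedle cells of the cluster led by Cd69 and Tnfsf15, Vegfa was 47.5 CPM (40.5 to 55.3) against 18.9 CPM, while the Pgf intervals overlapped, at 10.6 CPM (7.45 to 14.6) against 9.46 CPM (8.40 to 10.6). The 119 microneedle cells in the main croton oil cluster, led by H2-Ea and Mgl2, held 184 CPM of Pgf (165 to 204), against 197 CPM (194 to 201) in the croton oil cells of that cluster. The 108 croton oil cells in the main microneedle cluster held 151 CPM (132 to 172), against 92.6 CPM (90.4 to 94.8). The 92 untreated cells of that cluster held 18.6 CPM of Pgf (12.1 to 27.2) and 33.5 CPM of Vegfa (24.6 to 44.6). In the main untreated cluster these stood at 5.57 and 14 CPM.

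The cluster led by Fscn1 and Ccr7, genes of dendritic cell migration, stood out for Pdgfb. Its 221 croton oil gate cells held 41.3 CPM (34.6 to 48.9), against 10.7 CPM in the main croton oil cluster. LC-like cells outside the gate held 18.7 CPM of Pdgfb after croton oil and 9.86 CPM after microneedling. In these libraries they also held more Pgf than gate LCs, 209 against 180 CPM and 260 against 84.8 CPM, and less Vegfa, 46.8 against 64.9 CPM and 45.3 against 72.5 CPM. In the untreated library the order for Vegfa was opposite: the 158 LC-like cells outside the gate held 42.2 CPM (26.8 to 63.4), against 14.5 CPM in gate LCs. That level rested on 23 UMIs in 10 cells, with 9 of the UMIs in 1 cell. Hbegf in croton oil was higher in the heat-shock cluster, 22.7 CPM (19.8 to 26.0), than in the main cluster, 8.36 CPM (7.67 to 9.09).

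**Figure D3:**
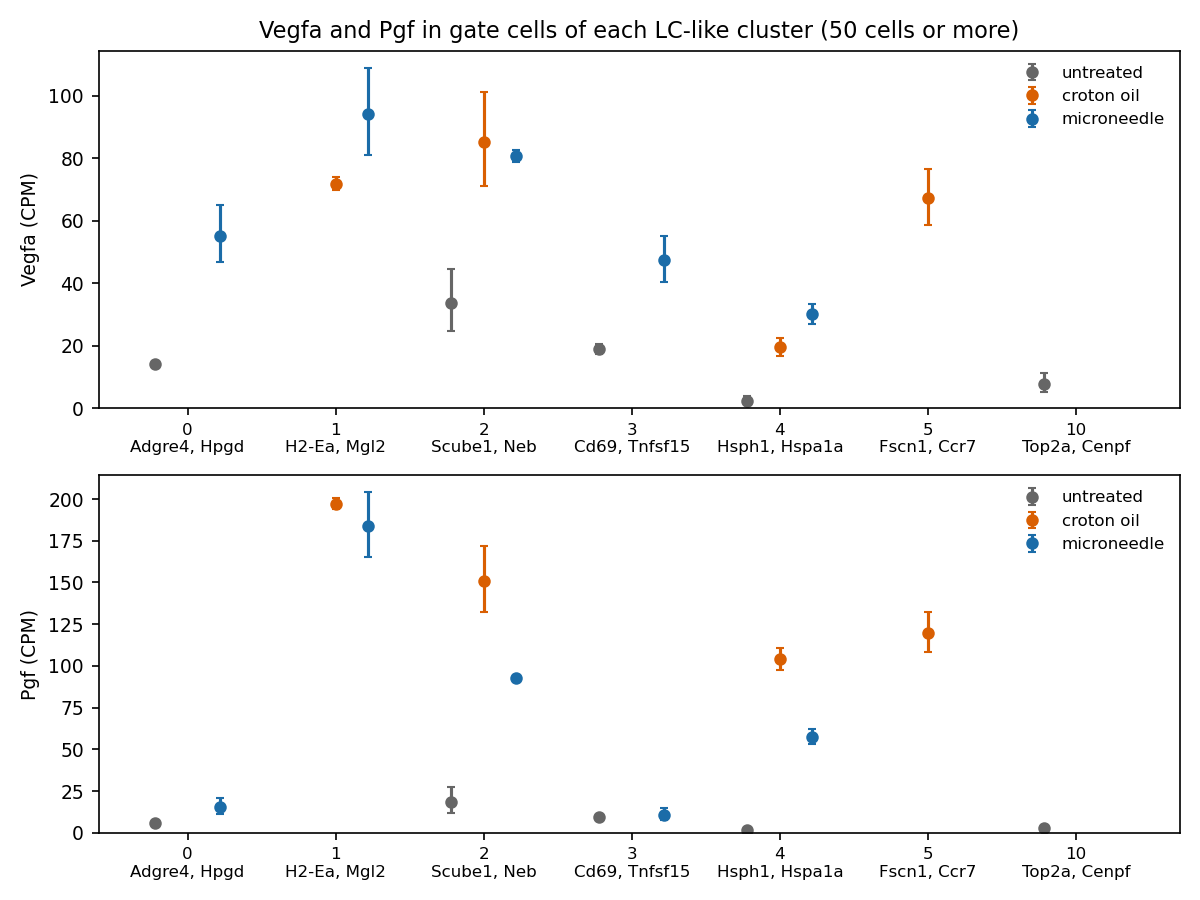
Vegfa (top) and Pgf (bottom) in CPM in the gate cells of each LC-like cluster with at least 50 such cells in a library, with exact Poisson intervals; clusters are named by number and leading genes. In the cluster led by Hsph1 and Hspa1a, Vegfa is lower than in the main cluster of each library, and in microneedle cells of clusters 0 and 3 Vegfa stands at 55.3 and 47.5 CPM while Pgf stands at 15.6 and 10.6 CPM.

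Detection of 2 members in the same LC was compared for 9 pairs within a library, after thinning, and the intervals were apart for 4 of them. They were only just apart for Vegfa with Pgf and for Pdgfb with Pgf after croton oil. How often intervals are apart over other gene pairs was not computed, and cells of all clusters were pooled. Of these 4 pairs, each with Pgf as the second gene, 3 had Pgf more often in cells with the first gene. After croton oil, 33.8% (26.2 to 42.1) of the 145 LCs with an Osm UMI had a Pgf UMI, against 21.3% (20.3 to 22.4) of the LCs without Osm. In croton oil 25.7% (22.4 to 29.2) of LCs with Vegfa and 21.1% (20 to 22.3) of those without had a Pgf UMI. In microneedle LCs it was found in 16.9% (14 to 20.1) of cells with Vegfa and 11% (10.1 to 11.9) of cells without. For Pdgfb after croton oil the order was opposite: 13.2% (7.87 to 20.3) of its cells had Pgf, against 21.8% (20.8 to 22.9) of the others. Intervals overlapped in the other 5 pairs, among them Osm with Vegfa after croton oil (13.8% against 10.9%) and Areg with Vegfa (5.26% against 11%). The cells of each pair share 1 library, and these shares are descriptions.

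The class with the highest CPM was the same in both treatments for Pgf, Osm, Hbegf and Pdgfa. In croton oil the highest class was LCs for Vegfa, Pgf and Pdgfb, keratinocyte-like cells for Hbegf and Pdgfa, neutrophil-like cells for Osm and T cell-like cells for Areg; Ereg and Igf1 stayed under 10 CPM in every class. LCs were thus highest for 3 of 7 members, and among all 11672 genes LCs were highest for 15.7%, keratinocyte-like cells for 28.8%, neutrophil-like cells for 18.9% and T cell-like cells for 36.6%. In microneedle the highest class was LCs for Pgf, macrophage-like cells for Vegfa, Areg and Igf1, keratinocyte-like cells for Ereg, Hbegf and Pdgfa and neutrophil-like cells for Osm, with Pdgfb under 10 CPM. That is 1 of 8 members for LCs, against 24.8% of 11416 genes; keratinocyte-like cells were highest for 37.6% of these, neutrophil-like cells for 17.8% and macrophage-like cells for 19.8%. Macrophage-like cells were too few for a level after croton oil, and T cell-like cells too few after microneedling, so both orders rest on 4 classes.

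**Figure D4:**
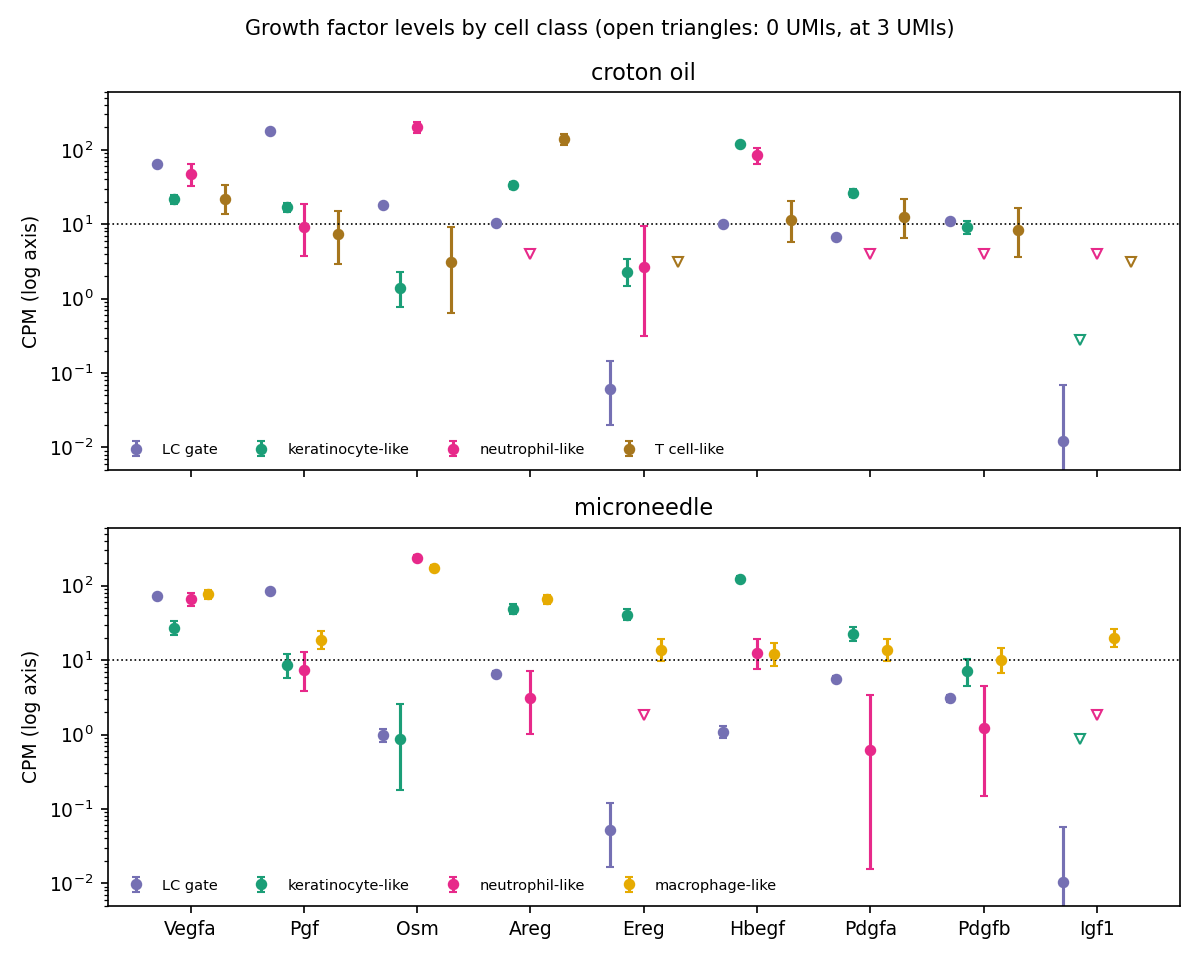
Level of each growth factor in CPM on a log axis in each class of at least 50 cells, for croton oil (top) and microneedle (bottom), with exact Poisson intervals; open triangles mark 0 UMIs, drawn at the level 3 UMIs would give, and the dotted line marks 10 CPM. Pgf is highest in Langerhans cells in both libraries, Osm in neutrophil-like cells and Hbegf in keratinocyte-like cells, with levels not corrected for carry-over.

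For Vegfa the leading classes were close. In croton oil LCs stood at 64.9 CPM, neutrophil-like cells at 47.4 CPM (33.2 to 65.6), T cell-like cells at 21.9 CPM (13.5 to 33.4) and keratinocyte-like cells at 21.6 CPM (18.9 to 24.5). In microneedle macrophage-like cells stood at 77.1 CPM (67.2 to 88.1), LCs at 72.5 CPM (70.8 to 74.2), neutrophil-like cells at 66.0 CPM (54.1 to 79.7) and keratinocyte-like cells at 27.4 CPM (22.1 to 33.5). The intervals of the first and second class overlapped in both libraries. Of the microneedle levels, carry-over could give up to 28.8 CPM in neutrophil-like and 13.9 CPM in keratinocyte-like cells. Keratinocyte-like cells held 3.65 CPM of Vegfa without treatment, so their ratios were 5.91 (3.81 to 9.61) and 7.49 (4.66 to 12.5). Carry-over could give up to 2.17 of these 3.65 CPM and 4.20 CPM of the croton oil level, so both ratios rest on a base that could be mostly carry-over.

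Pgf was highest in LCs by a wide margin. The next class after croton oil, keratinocyte-like cells, held 17.0 CPM (14.6 to 19.6), and RNA carried over from LCs, scaled by Cd207, could give up to 11.6 CPM there. In microneedle keratinocyte-like cells held 8.53 CPM, under the 16.3 CPM that carry-over could give, and this is read as background. Macrophage-like cells held 18.8 CPM (14.1 to 24.6) of Pgf after microneedling, against 2.14 CPM from carry-over.

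Osm was concentrated in myeloid cells that enter inflamed skin. Neutrophil-like cells held 201 CPM (171 to 236) after croton oil and 235 CPM (212 to 260) after microneedling, and macrophage-like cells 173 CPM (158 to 189) after microneedling. Carry-over between these 2 classes could give up to 64.7 CPM in neutrophil-like and 8.66 CPM in macrophage-like cells, so their order after microneedling depends on it. The croton oil neutrophil level was 11.1-fold (9.30 to 13.1) that of LCs. Keratinocyte-like cells held at most 1.39 CPM of Osm, but they held its receptor gene: Osmr stood at 23.1, 46.4 and 64.7 CPM there, against at most 0.381 CPM in LCs.

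The Egfr ligands came from several classes. Hbegf was highest in keratinocyte-like cells, at 53.3 CPM without treatment, 122 CPM (115 to 128) after croton oil and 124 CPM (112 to 136) after microneedling. Neutrophil-like cells held 84.2 CPM (64.8 to 108) of Hbegf after croton oil and 12.3 CPM (7.53 to 19.0) after microneedling, a ratio of 6.83 (4.08 to 11.9). Of the 3 members compared in neutrophil-like cells, Vegfa, Osm and Hbegf, 1 was at least 2-fold higher after croton oil and none lower, against 17.1% and 14.8% of 7285 genes. Areg stood at 140 CPM (117 to 165) in T cell-like cells of croton oil, whose markers include Trdc of gamma-delta T cells. Keratinocyte-like cells held 11.5, 33.4 and 48.8 CPM of Areg, and macrophage-like cells 65.4 CPM (56.3 to 75.5) after microneedling, which overlaps the keratinocyte interval (41.7 to 56.9). Egfr itself stood at 232, 311 and 227 CPM in keratinocyte-like cells and 91.1, 33.3 and 48.4 CPM in LCs.

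Ereg was a keratinocyte gene in the untreated library, at 60.5 CPM (54.4 to 67.0). It stood at 2.32 CPM (1.5 to 3.42) after croton oil, 26.1-fold lower, and at 40.9 CPM (34.4 to 48.3) after microneedling. All 364 untreated Ereg UMIs lay in the 153 keratinocyte-like cells with at least as many Krt10 as Krt14 UMIs (Krt10 marks suprabasal, Krt14 basal keratinocytes), and none in the 86 with more Krt14. Only 15 croton oil and 23 microneedle keratinocyte-like cells were of the Krt10 kind, so the classes compared differ in makeup; 27, 17 and 12 cells lay within 2-fold of this division, which was chosen after the data were seen. The 15 croton oil cells held 0 Ereg UMIs (exact upper limit 8.30 CPM), against 98.8 CPM in the 153 untreated cells. These sets were not matched: Krt10 stood at 6273 CPM in the 15 cells and 24067 CPM in the 153, and Krt14 at 1802 and 181 CPM. All 25 croton oil UMIs, and 78 of the 139 microneedle UMIs, lay in the cells with more Krt14. In microneedle 6 keratinocyte-like cells held all 139 UMIs of that class and 1 of them 57, and without that cell the level was 24.9 CPM. Macrophage-like cells came next in that library, at 13.9 CPM and 21.3% of the Ereg UMIs (39 UMIs in 6 cells).

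Over all keratinocyte-like cells, 4 of 7 members compared were at least 2-fold higher after croton oil (15.1% of all genes were) and 1, Ereg, lower (17.5%). The 4 were Vegfa, Pgf, Areg and Hbegf; for Pgf the untreated level rested on 3 UMIs, and carry-over could give 11.6 of its 17.0 CPM after croton oil. Without Pgf 3 of 6 were higher. After microneedling 3 of 6, Vegfa, Areg and Hbegf, were higher (10.5%) and none lower (7.6%). Untreated Vegfa and Pgf stood at 3.65 and 0.498 CPM, so low that passing the minimum fixed their calls, for Vegfa in both treatments. Among cells with more Krt14 than Krt10, the ratios to untreated were 3.63 (2.12 to 6.75) and 4.93 (2.77 to 9.43) for Vegfa. They were 5.85 (3.38 to 11.1) and 9.21 (5.21 to 17.7) for Areg. For Hbegf they were 2.10 (1.76 to 2.52) and 2.05 (1.68 to 2.53), with intervals reaching below 2. The untreated base was 14 Vegfa UMIs and 13 Areg UMIs, the latter in 5 cells. Of 137 microneedle Areg UMIs in these cells, 41 lay in 1 cell.

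Pdgfa and Pdgfb in keratinocytes turned with the same division. Over the whole class Pdgfa stood at 17.9, 26.2 and 22.7 CPM, a croton oil ratio of 1.46 (1.17 to 1.84). In the cells with more Krt14 it stood at 39.4, 27.1 and 26.2 CPM, a ratio of 0.687 (0.541 to 0.880). Pdgfb went from 13.3 to 9.08 CPM over the class after croton oil, a ratio of 0.683 (0.503 to 0.930), and from 7.70 to 9.18 CPM in the cells with more Krt14, a ratio of 1.19 (0.715 to 2.10). None of these 4 ratios reached 2-fold. As a source, keratinocyte-like cells led Pdgfa in both treatments, with 12.5 CPM in T cell-like cells next after croton oil and 13.9 CPM in macrophage-like cells next after microneedling, where the intervals of both classes overlapped. For Pdgfb in croton oil LCs (11.2 CPM) and keratinocyte-like cells (9.08 CPM) had overlapping intervals.

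Igf1 was found in macrophage-like cells after microneedling, at 19.9 CPM (15.0 to 25.8) and 56 UMIs. Keratinocyte-like and neutrophil-like cells held 0 UMIs, which in that library allows up to 0.883 and 1.85 CPM. Igf1r, its receptor gene, stood at 1630 and 2595 CPM in neutrophil-like cells and between 50.9 and 465 CPM in the other classes.

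By total UMIs in the suspension, LCs led more of the members. They held 75.4% of the UMIs of retained cells after croton oil and 89.3% after microneedling. LCs held most UMIs of 6 of 9 members after croton oil and of 5 of 9 after microneedling, against 85.3% and 89.6% of all genes with more than 3 UMIs. Their share of Vegfa UMIs was 84.8% and 92.2%, and of Pgf UMIs 82.5% and 88.9%. Their share of Osm UMIs was 82.1% in croton oil but 9.77% after microneedling, where macrophage-like cells held 50.1% and neutrophil-like cells 39.2%. Keratinocyte-like cells held most Hbegf, 55.5% and 71.9%, from 218 and 98 cells. These shares describe a suspension enriched for LCs and not the skin.

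**Figure D5:**
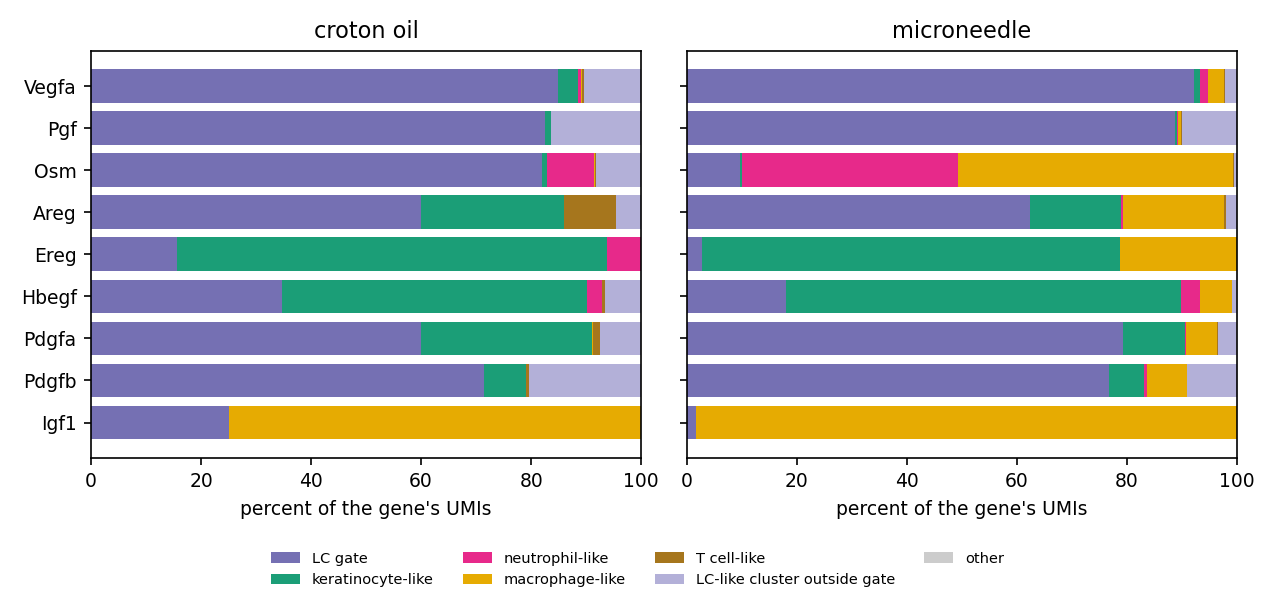
Share of each gene's UMIs in retained cells by class, in percent, for croton oil (left) and microneedle (right). Langerhans cells held 82.1% of Osm UMIs after croton oil, and macrophage-like and neutrophil-like cells held 50.1% and 39.2% after microneedling. Cell numbers differed too: macrophage-like cells numbered 6 and 385 and neutrophil-like cells 213 and 395. Ereg and Igf1 in croton oil rest on 32 and 4 UMIs.

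Among other ligands of these families, Nrg1, which encodes a ligand of Erbb3 and Erbb4, stood highest by ratio in LCs: 4.52, 67.0 and 39.6 CPM, ratios of 14.8 (13.5 to 16.3) and 8.77 (7.98 to 9.66). Egf was 2.99-fold and 2.57-fold higher, while Nrg4 stood at ratios of 0.538 and 0.734. Of 8 other Egf-family ligands, 3 were compared in each treatment and 2 were at least 2-fold higher, against 7.01% of all genes after croton oil and 4.65% after microneedling. These 2, Nrg1 and Egf, stood at 4.52 and 3.97 CPM untreated, so passing the minimum fixed their calls. Of 20 other angiogenic ligands only Adm, the vasodilator adrenomedullin, was compared, at 2.18 CPM untreated and 11.2 CPM after croton oil. Clcf1 (ratios 0.778 and 0.684) and Tgfb1 (1.18 and 1.14) were the only genes compared of the other interleukin-6 family and of the other platelet-derived, insulin-like, hepatocyte and transforming growth factor ligands.

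Of 23 receptors, 7 were compared in LCs: 1 was higher and 1 lower after croton oil (7.01% and 8.16% of all genes were), and 1 higher and none lower after microneedling (4.65% and 3.24%). Nrp2, a co-receptor of the vascular growth factors, was higher at 4.21, 35.9 and 17.5 CPM, and Egfr was lower in croton oil at a ratio of 0.366 (0.350 to 0.382). From 4.21 CPM untreated, Nrp2 could pass the minimum only at 2-fold or more. Il6st stood at a ratio of 0.510 after croton oil and Insr at 1.88 after microneedling. Igf1r stood at 1.999 after croton oil, just under the 2-fold limit, and at 1.76 after microneedling. Kdr, Nrp1 and Nrp2 stood at 137, 107 and 347 CPM in macrophage-like cells of the microneedle library, and Kdr was at most 0.776 CPM in LCs. Among 22 shedding, processing and binding proteins, 3 were higher and 2 lower of 11 compared after croton oil (7.01% and 8.16% of all genes were), and 1 higher and 2 lower of 10 after microneedling (4.65% and 3.24%). Mmp9, a matrix protease, went from 151 CPM untreated to 23.7 CPM after croton oil and 71.0 CPM after microneedling, and Pcsk6, a proprotein convertase, from 45.5 to 13.8 and 16.7 CPM. Adam8 and Rhbdf2 were 3.70-fold and 2.39-fold higher after croton oil, and Adam9 was 2.17-fold higher after croton oil and 2.49-fold after microneedling. Like Nrp2, Adam8 was so low untreated (2.80 CPM) that passing the minimum fixed its call.

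The hypoxia pathway, which acts on Vegfa, had 17 genes compared in croton oil LCs, of which Pgk1 (2.13-fold) and Ldha (2.12-fold) were higher and Epas1 (ratio 0.410) lower, against 7.01% and 8.16% of all genes. The median log2 ratio of the list was 0.34, against -0.05 over all genes. In microneedle none of 16 was 2-fold higher or lower (4.65% and 3.24% of all genes were) and the median was 0.02, against 0.01 over all genes. Of 10 feedback targets of ERK and STAT3 signalling, Socs3 (23.7 to 112 CPM), Dusp4 (11.9 to 50.3 CPM) and Dusp5 (73.4 to 233 CPM) were at least 2-fold higher after croton oil, against 7.01% of all genes. In microneedle Dusp5 (155 CPM) was the only 1 of 10 at 2-fold, against 4.65% higher among all genes. The median log2 ratios of this list were 0.52 and 0.42, against -0.05 and 0.01 over all genes.

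The genes most like each member were sought over the 10 sums of a class and a library with at least 50 cells, by Pearson's r of log2(CPM + 1). These sums share libraries, and r is a description. Vegfa was most like Fgl2 (r = 0.95), B3gnt5 (0.94) and Atf1 (0.91), Pgf most like Il21r (0.95), C1qa (0.93) and Htr7 (0.93), and Osm most like Lilrb4a, Cd300lb and Cxcr4 (each 0.98). Areg was most like Atg5 (0.98), Ereg like Fam234a (0.94), Hbegf like Mapkapk3 (0.94), Pdgfa like Suclg2 (0.97), Pdgfb like Manf (0.92) and Igf1 like Gm15056 (1.00), the last resting on 1 sum with a level.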

How the data were processed

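The deposited values were raw UMI counts for each gene in each barcode, which the authors made with Cell Ranger (version 8.0.0 is in the file headers; the build is GRCm39, per the submitters' processing notes). Libraries held 9876, 8241 and 6945 barcodes with 127666928, 119360952 and 117178809 UMIs (untreated, croton oil, microneedle), and shared 32, 17 and 13 barcodes by pair. Free RNA enters every droplet.

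Cells with at least 500 genes and at most 10% mitochondrial UMIs were kept. Scrublet's own threshold marked 2, 0 and 0 cells, so the highest scores were removed at 0.8% per 1000 cells (773, 532 and 376). Clustering was joint (scanpy 1.11.5, 2000 variable genes, 30 components, 15 neighbours, Leiden 0.5, leidenalg 0.10.2). Clusters were named from listed markers by a rule set after they were seen: at least 3 markers and a share of 0.5 of the list, at 20 CPM and 0.2 of the highest level. Each LC-like cluster mostly held cells of 1 library, except the one led by Hsph1 and Hspa1a, with 804, 801 and 800 cells. No LC-like cluster had an LC marker among its 10 leading genes.

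UMIs were summed per class and library. Intervals are exact Poisson for CPM and exact conditional binomial for ratios (scipy 1.17.1). A gene was compared at 10 CPM or more in either sum, and called at 2-fold. Carry-over into a class was the CPM of the source class scaled by tracer genes. Fold calling was tried on simulated Poisson counts, which hold counting error only and no spread between animals. edgeR 4.0.16 (R 4.3.3) gave scaling factors for 1 alternative. The members and lists were chosen with earlier results of these data known. Named genes were the 9 members, up to 4 genes of each list by size of change, and the 3 genes most like each member, of which the first is printed for some. Gene positions are from GENCODE M39.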

Additional observations from a re-analysis of the deposited data

Results flagged for a closer look

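In 3 cases with at least 10 CPM in either library in both classes, LCs and keratinocyte-like cells had ratios on opposite sides of 1 with counting intervals clear of 1. The difference between the classes was not tested, since each group is 1 library. How often such opposite ratios occur over all genes was not computed, so the 3 cases are not read as particular to these members. For Pdgfa, croton oil against untreated, the ratio was 0.502 in LCs and 1.46 in keratinocyte-like cells. For Pdgfb in the same comparison it was 5.20 in LCs and 0.683 in keratinocyte-like cells. In the keratinocyte-like cells with more Krt14 than Krt10 UMIs the ratio was 0.687 for Pdgfa and 1.19 for Pdgfb, so neither case held there. For Areg, croton oil against microneedle, it was 1.58 in LCs and 0.685 in keratinocyte-like cells, and 0.635 in those with more Krt14. Without gate cells of other clusters Areg in LCs stood at 7.93 and 6.48 CPM, under the 10 CPM minimum, a ratio of 1.22 (1.09 to 1.37). In 2 more cases, both microneedle against untreated, the LC levels were under 10 CPM: Hbegf, at 0.625 in LCs and 2.32 in keratinocyte-like cells, and Pdgfb, at 1.42 and 0.531. In the keratinocyte-like cells with more Krt14 the Pdgfb ratio was 1.07 (0.547 to 2.11). Without gate cells of other clusters the LC ratio of Hbegf was 0.983 (0.740 to 1.30).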

How the results depend on the processing

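The counts of members were recomputed under 11 listed alternatives and 1 added after seeing the data (gate cells in LC-like clusters only). No log2 ratio that was called in LCs changed sign. That of Osm for microneedle against untreated, which was not compared, ranged from -0.03 to 4.03. Of 283 recomputed log2 ratios 61 moved by more than the counting interval's half-width. The count of members 2-fold lower in croton oil LCs went from 0 to 1 (Pdgfa, next to the limit, or Ereg where no minimum was set) under the looser gate, LC-like clusters in place of the gate, no doublet removal, totals without mitochondrial and ribosomal protein genes, no minimum, only the largest LC-like cluster per library, and the added alternative. The count higher after croton oil was between 4 and 6 under every alternative but the 20 CPM minimum: 4 with the added alternative (Areg and Hbegf under 10 CPM) or only the largest cluster, where 3 were apart between treatments, and 5 with the stricter gate (Areg under 10 CPM). With a 20 CPM minimum the counts were 2 higher after croton oil, 0 lower after microneedling and 1 apart between treatments, since fewer members were compared. With no minimum 2 were lower after microneedling, and with a pseudocount of 5 CPM 0 were. The ratio of Osm after croton oil to untreated ranged from 3.89 with that pseudocount to 323. With the looser gate keratinocyte-like cells led Areg after microneedling. No paired analysis was possible because each group is 1 library.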
